A study of Mus musculus with 20 samples.

Results

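The receptors described here are those through which autonomic nerves and locally released ATP act on the salivary gland. They are the muscarinic receptors Chrm1 and Chrm3, the adrenergic receptors Adrb1, Adra1a and Adra1b, the receptors Vipr1 and Vipr2 for vasoactive intestinal peptide (VIP), the substance P receptor Tacr1 and the nucleotide receptor P2ry2. Members were chosen by gene symbol, from probe sets that carry 1 symbol, and where a gene had several, the brightest on average stood for it. By this rule 7 of the 9 receptors were measured, through 9 probe sets, among 18194 genes. Adrb1 and Adra1a had no single-symbol probe set in the annotation used here and were not analysed here. Chrm1 (probe set 1439611_at) and Vipr1 (1423004_at) each had another probe set, 1450833_at and 1455555_at. Chrm3 was read by 1422258_at, Adra1b by 1422183_a_at, Vipr2 by 1421391_at, Tacr1 by 1422282_at and P2ry2 by 1450318_a_at.

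The samples were whole salivary glands, freed of lymph nodes, from untreated C57BL/6J mice that the labels give as male, with 5 mice at each of the ages 4, 8, 12 and 16 weeks and 1 array for each of the 20 mice. The study used this inbred line as the healthy comparison for a congenic strain that develops a disease like Sjögren's syndrome, and that strain is not analysed here. Each mouse was sampled once, so ages were compared between different animals, and the labels do not say which of the salivary glands were taken. Values are log2 signals from robust multiarray averaging (RMA), so that a difference of 1 is a doubling of signal.

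All 13 measured of 15 acinar marker genes lay above the median signal of all genes, with summed linear signals of 19061 to 53839 at 4 weeks, 19271 to 33691.5 at 8 weeks, 26109.7 to 42721 at 12 weeks and 10589.7 to 32337 at 16 weeks. Of 8 skeletal muscle markers, 1 lay above that median. Some acinar markers varied widely over the 20 arrays, with log2 signals of 3.81 to 12.4 for Amy1, 6.04 to 14.1 for Dcpp3 and 5.56 to 12.5 for Smr3a. Others varied less, such as Prol1 (12.3 to 13.9). The mix of salivary glands on each array was not tested. Xist, which is transcribed from the inactive X chromosome of females, had log2 signals of 8.96 to 10.7. Of the Y-linked genes, Eif2s3y had 2.07 to 2.97, Kdm5d 3.65 to 4.75 and Uty 4.58 to 5.76. The Uty mean lay above 41.7% of genes and that of Kdm5d above 20.6%. Xist and Eif2s3y thus go against the label of male on all 20 arrays, while Kdm5d and Uty were less low. Every result below rests on these 20 arrays. The spread of signal over genes also differed between the ages, with a standard deviation per array of 1.68 ± 0.14 at 4 weeks, then 1.50 ± 0.09 at 8 weeks, 1.64 ± 0.03 at 12 weeks, and lastly 1.51 ± 0.14 at 16 weeks (mean ± SD, n = 5 mice each).

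Saliva is driven mainly by parasympathetic nerves. Acetylcholine acts on Chrm3, and to a lesser degree on Chrm1, which couple through Gq to phospholipase C and to calcium release in acinar cells, and fluid follows the chloride that calcium lets out. Noradrenaline from sympathetic nerves acts on Adrb1, which raises cyclic AMP and brings on exocytosis of stored protein, and on the alpha-1 receptors Adra1a and Adra1b, which use calcium. VIP and substance P are released with the classical transmitters and act on Gs-coupled and Gq-coupled receptors, and P2ry2 answers extracellular ATP and UTP through Gq.

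Start-site sequences are shown for Adra1b, the receptor whose age means lay farthest apart relative to their error, and for Chrm3, the main secretory receptor, whose means lay closest together. They are RefSeq windows of the GRCm38.p6 build, from 250 bases before to 50 bases after an annotated start. Of the 9 receptors, 7 had a window, 9 windows in all, and those without were Chrm1 and Adra1a. Adra1b lies on the minus strand of chromosome 11 and has windows at 2 starts. The letters in capitals mark matches to GGGCGG (the GC box) or CCAAT (the CCAAT box), read on both strands, so that CCGCCC and ATTGG are the same motifs on the other strand.
Adra1b, chr11:43836440-43836739, minus strand: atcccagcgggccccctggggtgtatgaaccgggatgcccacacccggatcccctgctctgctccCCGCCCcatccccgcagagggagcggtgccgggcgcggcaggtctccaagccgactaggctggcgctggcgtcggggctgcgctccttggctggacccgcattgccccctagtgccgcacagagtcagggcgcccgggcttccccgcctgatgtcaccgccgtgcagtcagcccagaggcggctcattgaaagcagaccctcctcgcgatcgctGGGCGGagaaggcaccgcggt
Adra1b, chr11:43901188-43901487, minus strand: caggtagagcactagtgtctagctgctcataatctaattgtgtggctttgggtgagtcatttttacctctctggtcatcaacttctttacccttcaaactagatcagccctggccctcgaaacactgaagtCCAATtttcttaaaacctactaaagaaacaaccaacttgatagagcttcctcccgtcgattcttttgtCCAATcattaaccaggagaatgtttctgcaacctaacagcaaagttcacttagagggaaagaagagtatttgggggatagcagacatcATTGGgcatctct
Chrm3, chr13:10360754-10361053, minus strand: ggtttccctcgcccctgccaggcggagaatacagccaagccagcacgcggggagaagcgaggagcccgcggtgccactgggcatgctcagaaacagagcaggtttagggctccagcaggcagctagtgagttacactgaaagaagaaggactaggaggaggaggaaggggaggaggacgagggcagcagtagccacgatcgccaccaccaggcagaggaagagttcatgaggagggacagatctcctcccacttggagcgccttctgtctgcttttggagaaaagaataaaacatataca
The upper Adra1b window held 71.3% G or C and 28 CG dinucleotides, with 2 GC boxes and no CCAAT box. The lower one held 42.3% G or C and 3 CG dinucleotides, with 3 CCAAT boxes and no GC box. In the Chrm3 window neither motif was found, and 57.3% of bases were G or C, with 11 CG dinucleotides. Over all 32851 windows of the table the medians were 52.7% and 7, and 35.7% held a GC box and 37.4% a CCAAT box. Among the 9 receptor windows, 6 held a GC box and 3 a CCAAT box, and the P2ry2 windows, which overlap over most of their length, both count among the 6. None of the 9 held TATAAA, found in 13.6% of all windows, or TGACGTCA, the cyclic AMP response element, found in 1.8%. These are matches of letters only, and the arrays do not show which start was used.

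No receptor passed the test between any 2 of the ages, and for each of them the mice of every 2 ages overlapped in signal. The test was limma over all 18194 genes, with Benjamini-Hochberg adjustment over all of them and a threshold of 0.05. At 8 against 4 weeks, 0 of the 7 receptors passed while 7.39% of all genes did. Their log2 fold changes ran from 0.09 to 0.40 and all 7 were positive, as were 54.8% of all genes, with a median of 0.24 over the receptors and 0.05 over all genes. Over all genes the sign went with the level of signal. The medians were 0.15, 0.14 and 0.09 in deciles 2, 3 and 5 of mean signal, and -0.49 in decile 10, the brightest. Chrm1 lay in decile 9 (median -0.25), and the other receptors lay in deciles 2, 3 and 5. Not every sign was the same under other processing, as Chrm3 was below 0 after cyclic loess, Chrm3 and Tacr1 with signal spread as a covariate, and Vipr1 with the mean of its probe sets. Chrm1 and Adra1b had an unadjusted p under 0.05 in this comparison, 2 of 7, against 32.4% of all genes. As these are whole glands, fewer cells of a type cannot be told apart from less RNA per cell.

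Between the later neighbouring ages the counts were again 0 of 7. At 12 against 8 weeks 0.0055% of all genes passed, the receptors had 0 positive log2 fold changes of 7 (44.1% of all genes), and their median was -0.14, against -0.05 over all genes. At 16 against 12 weeks 0.192% of all genes passed, 6 of the 7 receptors were positive (46.8% of all genes), and the median was 0.11, against -0.02 over all genes. Deciles 2, 3 and 5 of mean signal had medians of -0.14, -0.13 and -0.08 at 12 against 8 weeks. At 16 against 12 weeks these were 0.05, 0.07 and 0.03. Decile 9, that of Chrm1, had medians of 0.21 and -0.21 in these periods, where Chrm1 had -0.16 and 0.06, of the other sign. Adra1b alone had an unadjusted p under 0.05 in each of these periods, 1 of 7, against 18.8% and 14.2% of all genes. The signs at 12 against 8 weeks were turned for Chrm3 after cyclic loess and quantile normalization, and for Tacr1 with array weights, among other settings. Neighbouring periods share the mice of an age, so an opposite sign in the next period is not separate evidence.

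Over the longest interval, 16 against 4 weeks, 0 of 7 passed while 3.63% of all genes did, and 6 of 7 were positive (50.9% of all genes), with a median of 0.30 against 0.01. Deciles 2, 3 and 5 of mean signal had medians of 0.07, 0.08 and 0.06. Decile 9 had -0.19, where Chrm1 had 0.30. Adra1b and Vipr1 had an unadjusted p under 0.05, 2 of 7, against 24.2% of all genes. At 12 against 4 weeks 0 of 7 passed (0.0934% of all genes), none had an unadjusted p under 0.05 (9.03%), and 5 of 7 were positive (51.3%). At 16 against 8 weeks 0 of 7 and 0% of all genes passed, none of the 7 had an unadjusted p under 0.05 (5.81%), and 3 of 7 were positive (40.6%). The test of any difference among the 4 ages called 0 of 7, against 2.6% of all genes, and 1 of 7 had an unadjusted p under 0.05 (25.9%). That was Adra1b, with an adjusted p of 0.0554 from limma. The values of 2 ages did not overlap for 0 of the 7 receptors in each of the 6 comparisons. Over all genes this share was 5.75% at 8 against 4 weeks, 5.34% at 12 against 8 weeks, 2.65% at 16 against 12 weeks, 2.35% at 12 against 4 weeks, 0.945% at 16 against 8 weeks and 3.07% at 16 against 4 weeks.

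**Figure D1:**
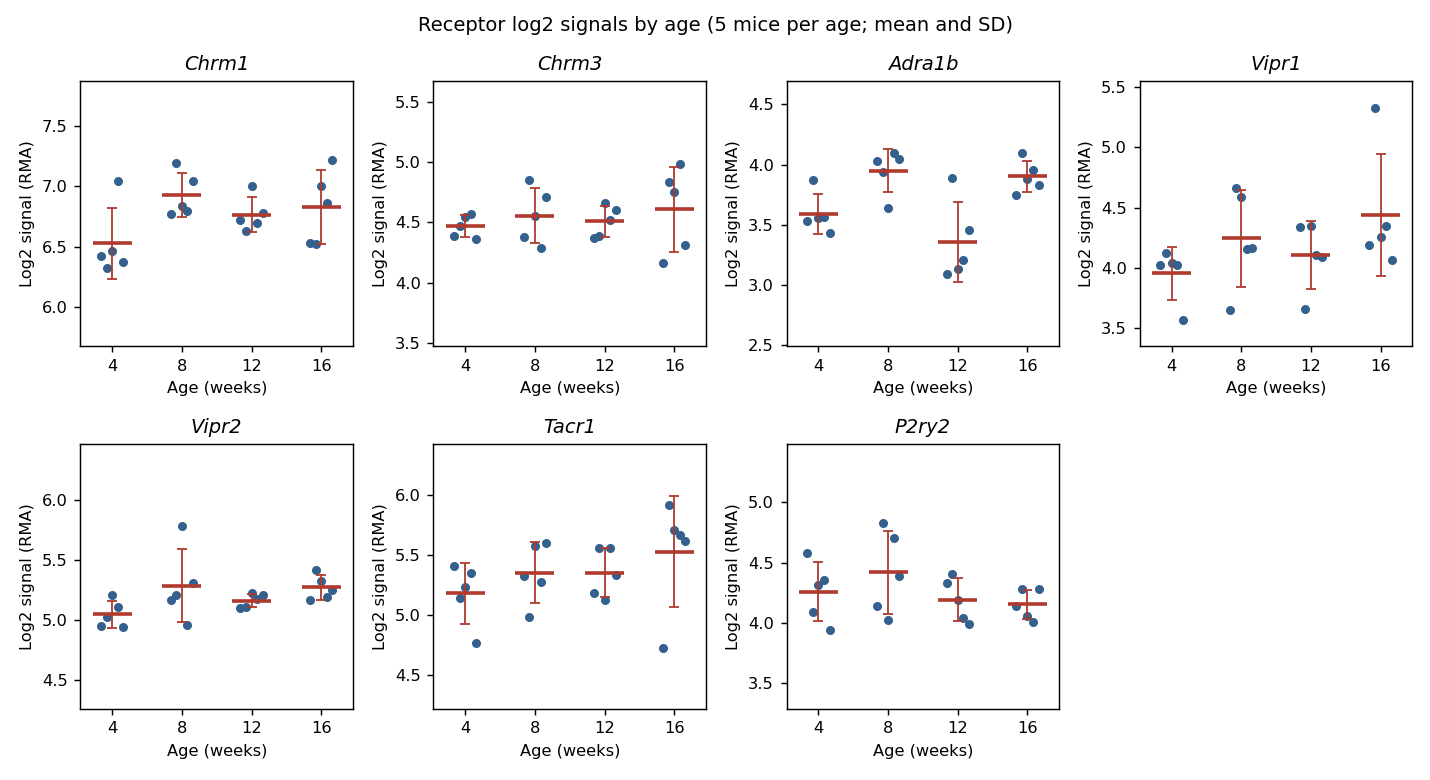
Log2 RMA signal of each measured receptor (vertical axes, which start at different signals and span the same range) against age in weeks. Points are single mice, 5 per age, wide bars are means and thin bars are SD. Adra1b runs low at 12 weeks in 4 of 5 mice, and in every panel the mice of neighbouring ages overlap.

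Chrm1 and Chrm3 are the muscarinic receptors of the secretory cells. The 5 mice had Chrm1 log2 signals of 6.42, 6.33, 6.47, 7.05 and 6.38 at 4 weeks, 6.77, 7.19, 6.83, 6.79 and 7.04 at 8 weeks, 6.72, 6.63, 7.0, 6.70 and 6.77 at 12 weeks, and 6.53, 6.52, 7.0, 6.86 and 7.22 at 16 weeks. All mice at 8 weeks lay above 4 of the 5 mice at 4 weeks. The other mouse of 4 weeks, at 7.05, lay within the ranges of 8 and of 16 weeks and above every mouse of 12 weeks. Chrm1 averaged 6.93 ± 0.18 at 8 weeks and 6.53 ± 0.30 at 4 weeks (SD, n = 5 each), a log2 fold change of 0.40 (95% interval 0.070 to 0.730, adjusted p = 0.0959 from limma). Genes in the same decile of mean signal had a median log2 fold change of -0.25 in this comparison, of the other sign. After quantile normalization of the arrays the Chrm1 value was 0.62 with an adjusted p of 0.0479, under the threshold, and over the other settings and each mouse left out the adjusted p lay between 0.0661 and 0.231, except for 0.0512 after cyclic loess, 0.518 with signal spread as a covariate and 0.986 for the other probe set.

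The means of Chrm1 stood in the order of 4, 12, 16 and 8 weeks, at 6.53, 6.76, 6.83 and 6.93, and no neighbours in this order differed beyond their spread. At 16 against 4 weeks the log2 fold change was 0.30 (95% interval -0.029 to 0.631, adjusted p = 0.251 from limma). The other Chrm1 probe set, 1450833_at, averaged 5.55 ± 0.16 at 8 weeks and 5.55 ± 0.15 at 4 weeks (SD, n = 5 each). Its log2 fold changes were 0.0045 at 8 against 4 weeks and 0.09 at 16 against 4 weeks, with adjusted p of 0.986 and 0.740 from limma over all probe sets taken singly. The probe sets thus gave different values over the youngest period, and they had opposite signs at 12 against 4 weeks (-0.07 for 1450833_at, 0.24 for 1439611_at) and at 16 against 8 weeks (0.08 and -0.10).

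Chrm3, whose loss in mice removes most of the fluid response to muscarinic agonists, showed the smallest spread of age means, 0.14 on the log2 scale. This cannot show a steady level, as arrays resolve small differences least at low signal. Chrm3 had a single probe set, with a mean of 4.53, above 26.4% of genes. Its log2 signals were 4.39, 4.47, 4.54, 4.57 and 4.37 at 4 weeks, 4.38, 4.85, 4.55, 4.29 and 4.71 at 8 weeks, 4.37, 4.38, 4.66, 4.52 and 4.60 at 12 weeks, and 4.16, 4.83, 4.75, 4.98 and 4.31 at 16 weeks. The 4-week mice lay within 0.21 of each other, and those of 16 weeks were spread over 0.82, around the values of every other age. At 16 against 4 weeks, the comparison with the largest log2 fold change for this gene, Chrm3 averaged 4.61 ± 0.35 at 16 weeks and 4.47 ± 0.09 at 4 weeks (SD, n = 5 each), a difference of 0.14 (95% interval -0.172 to 0.454, adjusted p = 0.588 from limma). Without replicate 1 of 16 weeks it was 0.25 (adjusted p = 0.235). The means followed the order of 4, 12, 8 and 16 weeks, at 4.47, 4.51, 4.56 and 4.61, with no neighbours apart beyond their spread, and the test of any difference gave an adjusted p of 0.861.

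The adrenergic receptor Adra1b, a Gq-coupled receptor for noradrenaline, had the lowest adjusted p of the 7 over the 4 ages. Its single probe set also had the lowest mean of the 7, 3.70, above 12.8% of genes, where arrays resolve small differences least. Its log2 signals were 3.53, 3.87, 3.56, 3.57 and 3.43 at 4 weeks, 4.03, 3.94, 3.64, 4.10 and 4.04 at 8 weeks, 3.09, 3.89, 3.13, 3.20 and 3.46 at 12 weeks, and 3.75, 4.09, 3.88, 3.96 and 3.84 at 16 weeks. In 4 of 5 mice at 12 weeks the signal was under every mouse of 8 and 16 weeks, and replicate 2 of 12 weeks, at 3.89, lay within both. The means stood in the order of 12, 4, 16 and 8 weeks, at 3.36, 3.59, 3.90 and 3.95. At 12 weeks Adra1b averaged 3.36 ± 0.33, against 3.95 ± 0.18 at 8 weeks (SD, n = 5 each), a log2 fold change of -0.59 (95% interval -0.899 to -0.290, adjusted p = 0.114 from limma). At 16 weeks it averaged 3.90 ± 0.13, and the log2 fold change against 12 weeks was 0.55 (95% interval 0.243 to 0.852, adjusted p = 0.148 from limma).

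The earlier step of Adra1b, 8 against 4 weeks, had a log2 fold change of 0.36 (95% interval 0.054 to 0.663, adjusted p = 0.104), and 16 against 4 weeks 0.31 (0.0064 to 0.616, adjusted p = 0.197). Without replicate 2 of 12 weeks the log2 fold change at 16 against 12 weeks was 0.68 (adjusted p = 0.0419) and the test of any difference among ages gave an adjusted p of 0.0210. Without replicate 1 of 16 weeks these were 0.59 (0.0368) and 0.0242, and without replicate 2 of 4 weeks the test of any difference gave 0.0389. All genes passing at 16 against 12 weeks numbered 35 with every mouse, 22 without that 12-week mouse and 1035 without that 16-week mouse. The test of any difference called 473 genes with every mouse and 775 without that 4-week mouse. Over all settings and mice left out, the adjusted p of any difference ranged from 0.0208 to 0.273. The highest, 0.273, came with signal spread as a covariate, and that spread was low at 8 and 16 weeks, where Adra1b was high. With it the log2 fold changes were 0.25, -0.50 and 0.47 in the 3 neighbouring periods. Genes in the same decile of mean signal as Adra1b, the second lowest, had medians of 0.15, -0.14 and 0.05 in these periods. Myoepithelial and smooth muscle markers, of which 8 of 9 lay above the median of all genes, summed to linear signals of 1579 to 3338, 1270 to 2593, 1707 to 2231.5 and 1029 to 2188 at the 4 ages from the youngest. The part of these cells in the Adra1b values was not tested.

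**Figure D2:**
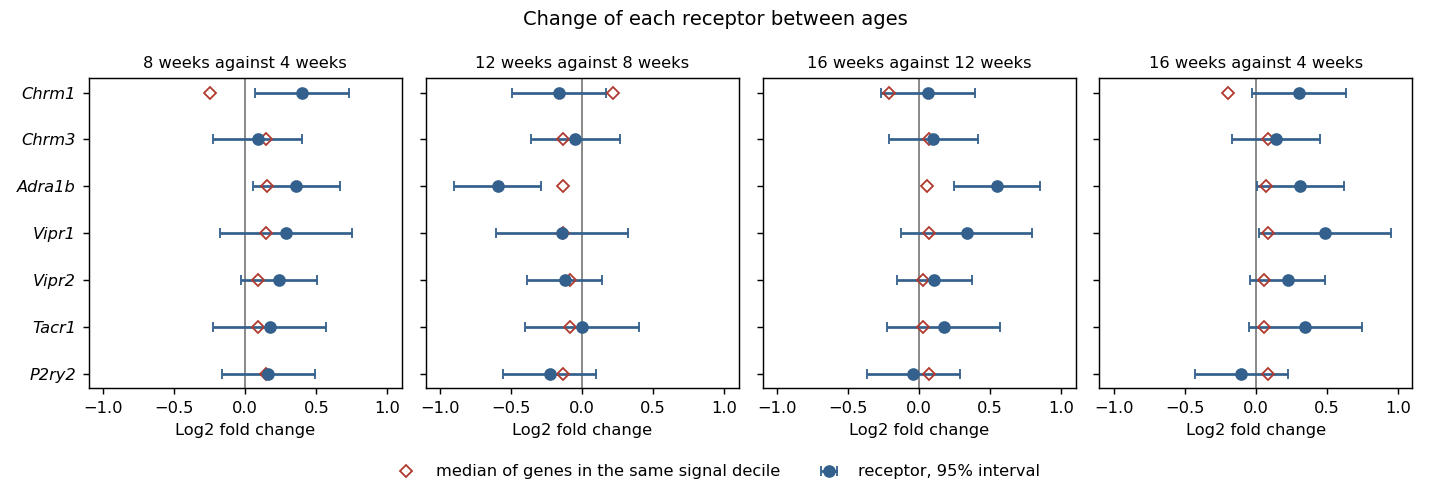
Log2 fold change of each receptor (horizontal axis) in 4 comparisons of ages, from the limma fit, with 95% intervals, and open diamonds for the median of all genes in the same decile of mean signal. The Adra1b intervals at 12 against 8 weeks and at 16 against 12 weeks lie on opposite sides of 0, and none of the values passed the adjusted threshold.

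Vipr1 and Vipr2 are Gs-coupled receptors for VIP, which in salivary glands widens vessels and adds to secretion. Vipr1 had log2 signals of 4.03, 4.12, 4.04, 4.02 and 3.57 at 4 weeks, 3.65, 4.67, 4.58, 4.15 and 4.17 at 8 weeks, 4.34, 3.66, 4.35, 4.10 and 4.09 at 12 weeks, and 4.19, 5.33, 4.26, 4.35 and 4.07 at 16 weeks. One value at 16 weeks, 5.33 in replicate 2, stood above the next at 4.35, and the other 4 lay within the range of 8 weeks. Vipr1 averaged 4.44 ± 0.51 at 16 weeks and 3.96 ± 0.22 at 4 weeks (SD, n = 5 each), a log2 fold change of 0.48 (95% interval 0.019 to 0.946, adjusted p = 0.190 from limma). Without that mouse the value was 0.26 (adjusted p = 0.482). The order of means was 4, 12, 8 and 16 weeks, at 3.96, 4.11, 4.25 and 4.44, and no neighbours differed beyond their spread.

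The other Vipr1 probe set, 1455555_at, had log2 fold changes of the opposite sign in 5 of 6 comparisons. It averaged 3.57 ± 0.33 at 8 weeks and 4.08 ± 0.18 at 4 weeks (SD, n = 5 each), which gave a value of -0.51 on the log2 scale (adjusted p = 0.0955 from limma over all probe sets), while 1423004_at had 0.29 in this comparison. At 16 against 4 weeks the values were -0.36 for 1455555_at and 0.48 for 1423004_at. A direction for Vipr1 thus depends on the probe set, and with their mean the log2 fold change at 16 against 4 weeks was 0.06 (adjusted p = 0.836).

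**Figure D3:**
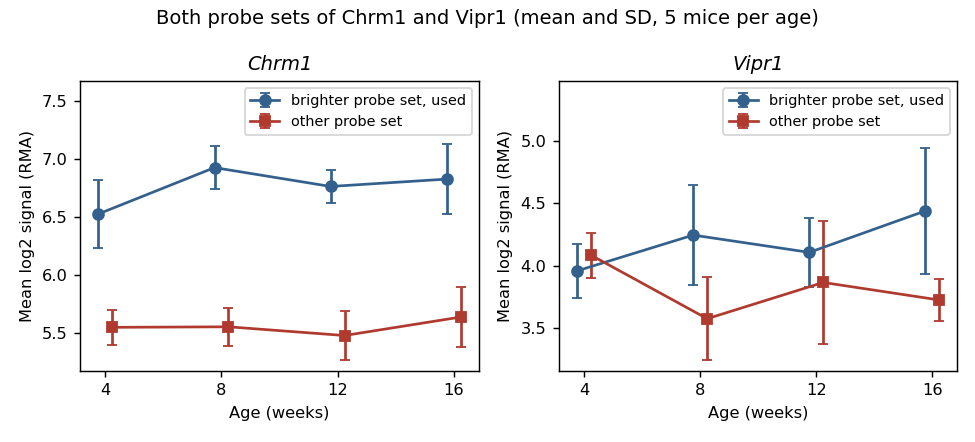
Mean log2 RMA signal with SD (vertical axes) by age in weeks for both probe sets of Chrm1 and of Vipr1, 5 mice per age. The 2 lines of Vipr1 run in opposite directions over most periods, and for Chrm1 the dimmer probe set stays near 5.55 at 4 and 8 weeks while the brighter one is higher at 8 weeks.

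Vipr2, the other VIP receptor, had the smallest standard deviation pooled over the ages (0.173), although not within 4 or within 8 weeks. Its log2 signals ran from 4.95 to 5.21 at 4 weeks (median 5.03), 4.96 to 5.78 at 8 weeks (median 5.21), 5.10 to 5.23 at 12 weeks (median 5.18) and 5.17 to 5.42 at 16 weeks (median 5.25). All 5 mice of 16 weeks lay above 4 of the 5 mice of 4 weeks. It averaged 5.27 ± 0.10 at 16 weeks and 5.05 ± 0.11 at 4 weeks (SD, n = 5 each), a log2 fold change of 0.22 (95% interval -0.042 to 0.487, adjusted p = 0.290 from limma). At 8 against 4 weeks it was 0.24 (-0.027 to 0.502, adjusted p = 0.193), and both values were positive in all settings tried. Means followed the order of 4, 12, 16 and 8 weeks, at 5.05, 5.16, 5.27 and 5.29. Neighbours in this order had adjusted p of 0.825, 0.733 and 0.997 from limma.

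Tacr1 is the Gq-coupled receptor for substance P, a strong secretagogue in rodent glands. Its log2 signals were 5.41, 5.14, 5.24, 5.35 and 4.76 at 4 weeks, 5.33, 4.98, 5.57, 5.27 and 5.60 at 8 weeks, 5.18, 5.55, 5.12, 5.56 and 5.34 at 12 weeks, and 4.73, 5.91, 5.71, 5.66 and 5.62 at 16 weeks. In 4 of the 5 mice at 16 weeks the signal was above all mice of 4 weeks, and replicate 1, at 4.73, was below them all. Tacr1 averaged 5.53 ± 0.46 at 16 weeks and 5.18 ± 0.25 at 4 weeks (SD, n = 5 each), a log2 fold change of 0.35 (95% interval -0.051 to 0.743, adjusted p = 0.274 from limma). Without replicate 1 of 16 weeks the value was 0.54, with an adjusted p of 0.0252. Leaving out that array also raised the genes called in this comparison from 660 to 3003 of 18194. That array had a standard deviation of signal over genes of 1.74, the highest at 16 weeks, where the other 4 arrays had 1.39 to 1.52. With this spread as a covariate the log2 fold change was 0.0090 (adjusted p = 0.990). Means of Tacr1 stood at 5.18, 5.35, 5.35 and 5.53 in the order of 4, 12, 8 and 16 weeks, and no neighbours in this order differed beyond their spread.

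P2ry2, the Gq-coupled receptor for ATP and UTP, had the lowest mean at 16 weeks. Its log2 signals ran from 3.94 to 4.58 at 4 weeks (median 4.32), 4.02 to 4.83 at 8 weeks (median 4.39), 3.99 to 4.41 at 12 weeks (median 4.19) and 4.01 to 4.28 at 16 weeks (median 4.14). The whole range of 16 weeks lay inside that of 4 and of 12 weeks. It averaged 4.15 ± 0.12 at 16 weeks and 4.42 ± 0.35 at 8 weeks (SD, n = 5 each), a log2 fold change of -0.27 (95% interval -0.593 to 0.061, adjusted p = 0.864 from limma). At 16 against 4 weeks it was -0.10 (-0.431 to 0.222, adjusted p = 0.714), the 1 negative value among the receptors in that comparison. Means stood at 4.15, 4.19, 4.26 and 4.42 in the order of 16, 12, 4 and 8 weeks, with no neighbours apart beyond their spread.

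Over the 20 arrays, Pearson's r between pairs of receptors ran from -0.27 for Vipr2 and P2ry2 to 0.57 for Chrm3 and Vipr1, given as a description because the arrays share their ages and their spread of signal. Among all other genes, the 3 most like Adra1b by Pearson's r were Cfap53 (0.87), Cd70 (0.83) and Clnk (0.80), and their means at 4, 8, 12 and 16 weeks were 4.59, 4.91, 4.50 and 4.82 for Cfap53. Those most like Chrm1 were Trpm3 (0.82), Klra5 (0.82) and Csmd3 (0.80), and those most like Chrm3 were Gm31690 (0.85), Gm128 (0.83) and C730034F03Rik (0.82). For Vipr1 they were Grifin (0.92), Plpp4 (0.86) and Septin1 (0.85), and for Vipr2 Plau (0.88), AW047730 (0.88) and Gm15511 (0.88). Tacr1 had Prkcq (0.87), Eral1 (0.86) and Lce1f (0.85), and P2ry2 had Iqcm (0.76), Emilin3 (0.74) and Mycn (0.74). Such values are the highest of 18194 genes over 20 arrays.

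The other receptors of the same classes gave 0 calls in every comparison. The share of all genes that passed ran from 0% at 16 against 8 weeks to 7.39% at 8 against 4 weeks. Of the 5 muscarinic receptors 3 were measured, and Chrm4, which couples to Gi, averaged 3.18 at 8 weeks and 3.34 at 4 weeks (log2 fold change -0.16, adjusted p = 0.423 from limma). Of 9 adrenergic receptors 2 were measured, and Adra2c, which in other tissues of mice limits noradrenaline release, averaged 5.19 at 8 weeks and 4.69 at 4 weeks (0.49, adjusted p = 0.128). Adcyap1r1, the receptor for the VIP relative PACAP, averaged 5.81 at 8 weeks and 5.45 at 4 weeks (0.36, adjusted p = 0.177). The tachykinin receptors Tacr2 and Tacr3 had 0.20 and 0.82 at 8 against 4 weeks (adjusted p = 0.243 and 0.0736), the Tacr3 value being the largest of any receptor of these classes. All 15 purinergic receptors were measured, with a median of 0.15 at 8 against 4 weeks, and the lowest adjusted p was 0.128, for P2ry12. The 9 measured receptors and accessory proteins for neuropeptide Y, calcitonin gene-related peptide and galanin had a median of 0.22 in this comparison, and the lowest adjusted p was 0.0630, for Galr1.

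Among 16 measured of 17 enzymes, transporters and peptides of the transmitters, Adcyap1, which encodes PACAP, was the 1 gene that passed, and the median of the list at 8 against 4 weeks was 0.17. That is 1 of 16 at 8 against 4 weeks, where 7.39% of all genes passed. Adcyap1 rose to 5.51 ± 0.28 at 8 weeks, against 4.95 ± 0.15 at 4 weeks (SD, n = 5 each), 0.56 higher on the log2 scale (adjusted p = 0.0446 from limma), and passed in 4 of 10 other settings and in 6 of 20 fits with 1 mouse left out. Chat, which makes acetylcholine, had 0.44 in the same comparison (adjusted p = 0.0837) and 0.54 at 16 against 4 weeks (adjusted p = 0.0711). Tac1, the precursor of substance P, had 0.42 at 8 against 4 weeks (adjusted p = 0.0689) and -0.60 at 12 against 8 weeks (adjusted p = 0.114). Vip had -0.39 and -0.62 at 8 and at 16 against 4 weeks (adjusted p = 0.327 and 0.181). In the other 5 comparisons of ages 0 of the 16 genes passed. Of all genes, 3.63% passed at 16 against 4 weeks and 0% to 0.192% in the rest.

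Below the receptors, some genes of the Gq and Gs pathways passed at 8 or at 16 against 4 weeks, where 7.39% and 3.63% of all genes did. Of 20 measured Gq and calcium genes, 1 was higher and 1 lower at 8 than at 4 weeks, and 0 higher and 2 lower at 16 than at 4 weeks. The median log2 fold change of the list was -0.13 and -0.03 in these comparisons, which share the 4-week mice, against 0.05 and 0.01 over all genes. Plcb1, the phospholipase C that Gq activates, rose to 7.47 ± 0.36 at 8 weeks, against 6.47 ± 0.42 at 4 weeks (log2 fold change 1.00, adjusted p = 0.0229), and with the mean of its 5 probe sets the value was 0.23 (adjusted p = 0.0731). Atp2a2, the calcium pump of the endoplasmic reticulum, fell to 8.74 ± 0.60 at 8 weeks and 8.62 ± 0.76 at 16 weeks, against 9.90 ± 0.65 at 4 weeks (-1.16 and -1.28, adjusted p = 0.0442 and 0.0423). With the mean of its 6 probe sets the Atp2a2 values were -0.39 and -0.34 (adjusted p = 0.104 and 0.205), and with cyclic loess they were -0.56 and -0.46 (adjusted p = 0.0403 and 0.0882). Atp2a3, a related pump of secretory cells, fell to 9.06 ± 1.01 at 16 weeks, against 10.50 ± 0.64 at 4 weeks (-1.44, adjusted p = 0.0498), and the value was -0.52 with cyclic loess (adjusted p = 0.186). All these are means ± SD of 5 mice with adjusted p from limma.

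Of 24 measured Gs and cyclic AMP genes, 1 was higher and 2 lower at 8 than at 4 weeks, and 1 higher and 1 lower at 16 than at 4 weeks, again against 7.39% and 3.63% of all genes. The medians of the list were -0.12 and -0.03. Gnas, which encodes the Gs alpha subunit, fell to 9.54 ± 0.69 at 8 weeks and 9.70 ± 0.55 at 16 weeks, against 10.89 ± 0.50 at 4 weeks (-1.35 and -1.19, adjusted p = 0.0254 and 0.0382). With the mean of its 5 probe sets the Gnas values were -0.055 and -0.040 (adjusted p = 0.798 and 0.882), and with cyclic loess -0.64 and -0.14 (adjusted p = 0.131 and 0.789). Prkar2b, a regulatory subunit of protein kinase A, fell to 5.76 ± 0.47 at 8 weeks, against 7.06 ± 0.53 at 4 weeks (-1.30, adjusted p = 0.0309). Pde3a, which breaks down cyclic AMP, rose to 5.26 ± 0.12 at 8 weeks and 5.33 ± 0.30 at 16 weeks, against 4.72 ± 0.18 at 4 weeks (0.53 and 0.61, adjusted p = 0.0388 and 0.0299), with 0.17 and 0.31 for the mean of its 3 probe sets (adjusted p = 0.192 and 0.0655). Gnas and Pde3a also passed the test of any difference among the 4 ages (adjusted p = 0.0236 and 0.0489 from limma). That test called 2.6% of all genes. In the comparisons without 4 weeks and at 12 against 4 weeks 0 of 24 genes passed, against 0% to 0.192% of all genes.

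Of 14 measured receptor kinases, arrestins and RGS proteins, which shorten receptor signals, 1 was higher and 1 lower at 8 than at 4 weeks, and 1 was lower at 16 than at 4 weeks, against 7.39% and 3.63% of all genes. The medians here were 0.0079 and 0.02. Rgs2, which acts on Gq, rose to 5.78 ± 0.27 at 8 weeks, against 5.02 ± 0.26 at 4 weeks (0.77, adjusted p = 0.0264), in 1 of its 4 probe sets, and their mean gave 0.14 (adjusted p = 0.385). Rgs5, also a marker of pericytes, fell to 5.89 ± 0.38 at 8 weeks and 5.95 ± 0.32 at 16 weeks, against 6.88 ± 0.26 at 4 weeks (-0.99 and -0.92, adjusted p = 0.0246 and 0.0283). At 8 against 4 weeks 1 of 4 Rgs5 probe sets had this sign, and with their mean the log2 fold changes were 0.0024 and -0.14 (adjusted p = 0.988 and 0.377). The sign was shared by 3 of 5 probe sets for Gnas and for Plcb1, 4 of 6 for Atp2a2, 2 of 3 for Pde3a, and all 3 for Prkar2b. Rgs2 and Rgs5 also passed the test of any difference among the 4 ages (adjusted p = 0.0385 for each from limma). Of all genes, 2.6% passed it.

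The falls of Gnas, Atp2a2 and Atp2a3 lay in the brightest decile of genes, whose median log2 fold change was -0.49 at 8 against 4 weeks and -0.55 at 16 against 4 weeks. Of 13 acinar markers, 3 fell at 8 weeks (Cldn10, Ano1 and Lpo) and 2 at 16 weeks, against 4 weeks, where 7.39% and 3.63% of all genes passed, and 0 of 13 rose. Their part in these results was not tested.

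These calls depended on the processing and on single mice. Counting Adcyap1, there were 13 of them over both comparisons, and without replicate 4 or replicate 5 of 4 weeks 0 of the 13 passed (adjusted p = 0.0600 to 0.103 and 0.0817 to 0.173 from limma). The calls over all genes fell as well. Without these mice they went from 1345 to 20 and 14 at 8 against 4 weeks. At 16 against 4 weeks they went from 660 to 103 and 91. With replicate 3 of 8 weeks left out 4 passed, with replicate 5 of 8 weeks left out 5, with replicate 3 of 4 weeks left out 7, and with any other mouse left out 8 to 13. Without replicate 3 or replicate 5 of 8 weeks, 17 and 22 of all genes passed at 8 against 4 weeks. With signal spread as a covariate, or with the arrays of the compared ages alone, 0 of 13 passed, and with the mean of probe sets 2 did, Adcyap1 and Prkar2b. The covariate left 16 of all genes called at 8 against 4 weeks and 148 at 16 against 4 weeks. The arrays of the compared ages alone left 2 and 75. At 8 against 4 weeks the call held in 16 of 20 fits with 1 mouse left out for each of Gnas, Plcb1, Rgs2 and Rgs5, in 14 for Pde3a and Prkar2b and in 8 for Atp2a2. At 16 against 4 weeks it held in 16 for Pde3a, 15 for Rgs5, 13 for Gnas, 8 for Atp2a2 and 4 for Atp2a3. Over 10 other settings it held at 8 against 4 weeks in 7 for Rgs5, 6 for Plcb1 and for Prkar2b, 5 for Rgs2, 4 for Gnas and for Atp2a2 and 2 (of 9) for Pde3a, and at 16 against 4 weeks in 6 for Rgs5, 6 (of 9) for Pde3a, 4 for Atp2a2 and 3 for Gnas and for Atp2a3.

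**Figure D4:**
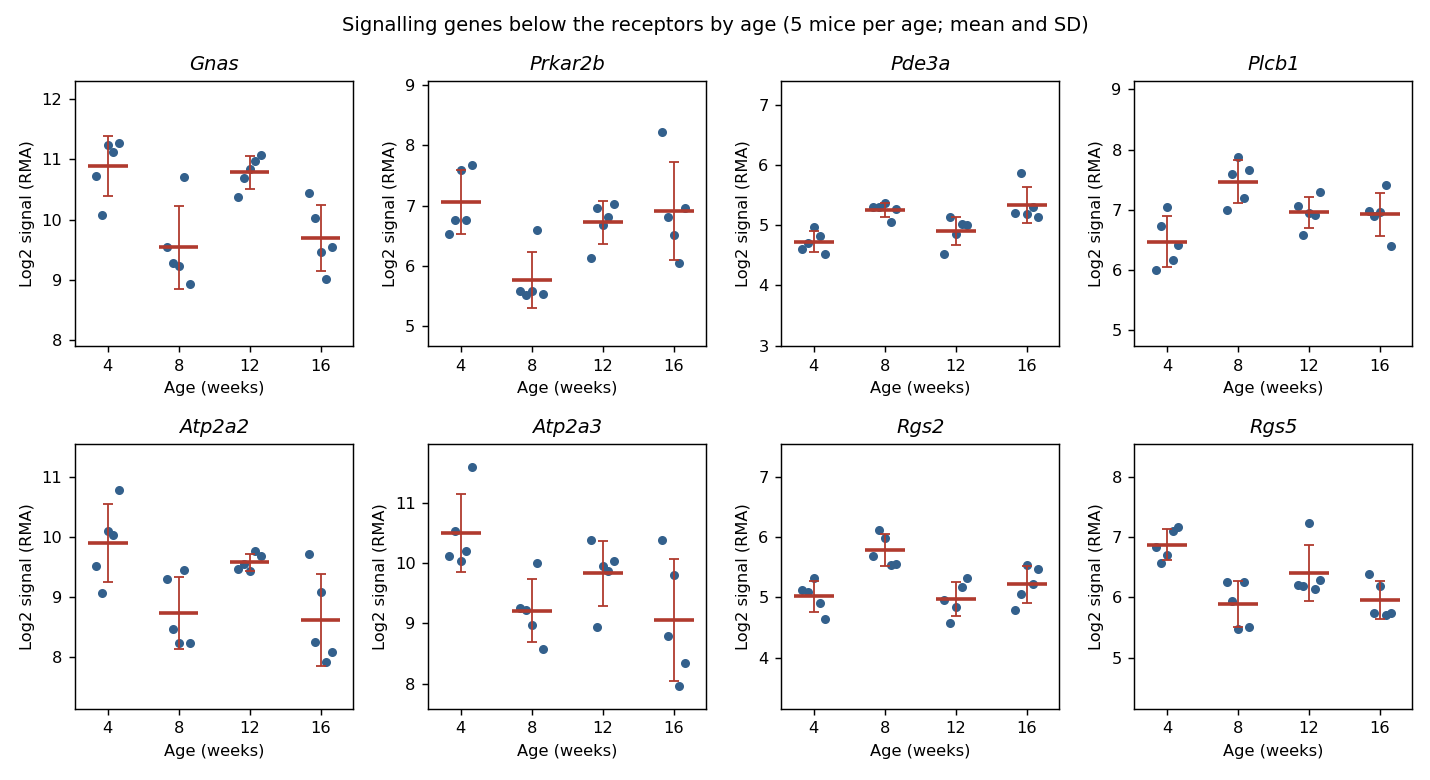
Log2 RMA signal (vertical axes) against age in weeks for 8 genes of Gq, Gs and RGS signalling that passed the test in a comparison with 4 weeks. Points are single mice, 5 per age, wide bars are means and thin bars are SD. Gnas, Atp2a2, Atp2a3 and Rgs5 have lower means at 8 and 16 weeks than at 4 weeks, while Plcb1, Pde3a and Rgs2 have higher means at 8 weeks.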

How the data were processed

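Total RNA from 20 salivary glands was hybridised singly to Affymetrix whole-genome mouse arrays. The authors deposited log2 signals of 45101 probe sets after RMA in Expression Console 1.1, and these were used as they stand. The platform annotation gave 1 symbol to 34958 probe sets, of which 34754 matched the reference, several to 932, and did not list 9211. The members and gene lists were chosen with earlier results of these data known. One limma 3.58.1 fit (R 4.3.3) over 20 arrays had age as the factor, with 6 contrasts of ages and 1 moderated F-test, Benjamini-Hochberg adjustment over 18194 genes and a threshold of 0.05. Intervals are from the moderated statistic, and their precision is limited by 5 arrays per age. Named were the members, the 3 genes most like each, listed genes past the threshold (at most 5 per list and comparison), related receptors, Vip, Tac1 and Chat. Marker lists described cell types. Promoter windows were searched with Python 3.11.15. The fit was tested on simulated data. Alternatives were median centring, cyclic loess, quantile normalization, signal spread as a covariate, the mean of probe sets, the other probe set, a 40th percentile filter, limma-trend, array weights, a replicate block, 2 ages alone and each mouse left out.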

Additional observations from a re-analysis of the deposited data

Results flagged for a closer look

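Single mice stood apart from the other 4 of their age in 4 of the 28 groups of 5 mice, by Dixon's test at the 95% level, which chance flags in about 1 in 20 groups. Chrm1 had a log2 signal of 7.05 in replicate 4 of 4 weeks, with the next at 6.47. Vipr1 had 3.57 in replicate 5 of 4 weeks, below the next at 4.02, and 5.33 in replicate 2 of 16 weeks, above the next at 4.35. Tacr1 had 4.73 in replicate 1 of 16 weeks, with the next at 5.62.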

How the results depend on the processing

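Of 396 log2 fold changes of the 7 receptors under settings other than the other probe set of a gene, 373 had the sign reported, as had 823 of 840 with each of the 20 mice left out in turn. Many of these signs could not turn. Limma-trend, the replicate block, 2 ages alone and the filter leave a log2 fold change as it was. So does the mean of probe sets for a receptor with a single probe set, and leaving out a mouse of an age not compared. A filter on mean signal at its 40th percentile (5.12) kept Chrm1, Vipr2 and Tacr1, so it gave no value for Chrm3, Adra1b, Vipr1 and P2ry2, whose probe sets lie where arrays resolve small differences least. The files used here hold no detection calls. The test of any difference among the 4 ages has no value when only 2 ages are fitted. The cause of the changes below was not tested unless the setting itself shows it.

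Some receptors were called under another setting. The test of any difference called 1 of 7 receptors, Adra1b, with arrays centred on their median, with the mean of probe sets, with limma-trend and robust variances and with array weights (adjusted p = 0.0489, 0.0493, 0.0438 and 0.0208 from limma). At 16 against 12 weeks array weights called 1, Adra1b (log2 fold change 0.57, adjusted p = 0.0241), and at 8 against 4 weeks quantile normalization called 1, Chrm1. Array weights called 1164 of all genes at 16 against 12 weeks and 1486 by the test of any difference, against 35 and 473 in the fit reported. With 1 mouse left out, 0 to 1 receptors were called at 16 against 12 weeks (Adra1b, without replicate 2 of 12 weeks or replicate 1 of 16 weeks), 0 to 1 at 16 against 4 weeks (Tacr1, without replicate 1 of 16 weeks) and 0 to 1 by the test of any difference (Adra1b). Without replicate 1 of 16 weeks, 1035 of all genes were called at 16 against 12 weeks and 3003 at 16 against 4 weeks. In the fit reported these counts were 35 and 660. The other comparisons called 0 receptors under every setting and with each mouse left out.

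Signs turned as follows, none with an adjusted p under the threshold. With arrays centred on their median Vipr2 had 0.0029 at 16 against 8 weeks. With cyclic loess Chrm3 had -0.044 at 8 against 4 weeks and 0.062 at 12 against 8 weeks, Tacr1 0.048 at 12 against 8 weeks, and Adra1b 0.044 and Vipr2 0.033 at 16 against 8 weeks. With quantile normalization Chrm3 had 0.013 at 12 against 8 weeks, and Adra1b 0.018 and Vipr2 0.0010 at 16 against 8 weeks. With signal spread as a covariate Chrm3 had -0.10, 0.11 and -0.037 and Tacr1 -0.19, 0.29 and -0.090 over the 3 neighbouring periods, Vipr1 had 0.047 at 12 against 8 weeks and Chrm3 -0.035 at 16 against 4 weeks. With the mean of probe sets Vipr1 had -0.11 at 8 against 4 weeks, 0.076 at 12 against 8 weeks and -0.035 at 12 against 4 weeks, and Rgs5 had 0.0024 at 8 against 4 weeks. With array weights Tacr1 had 0.017 at 12 against 8 weeks, Chrm3 -0.00015 at 12 against 4 weeks and Vipr2 0.028 at 16 against 8 weeks. The other probe set of Chrm1 had -0.071 at 12 against 4 weeks and 0.084 at 16 against 8 weeks, and that of Vipr1 had -0.51, 0.29 and -0.14 over the neighbouring periods, -0.22 at 12 against 4 weeks and -0.36 at 16 against 4 weeks.

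With 1 mouse left out, values that crossed 0 ranged from -0.035 to 0.14 for Chrm1 and -0.090 to 0.015 for P2ry2 at 16 against 12 weeks, and from -0.11 to 0.026 for Chrm3, -0.093 to 0.062 for Tacr1 and -0.20 to 0.00050 for Vipr2 at 12 against 8 weeks. They ranged from -0.14 to 0.014 for P2ry2 at 12 against 4 weeks, and from -0.039 to 0.17 for Chrm3, -0.028 to 0.30 for Vipr1 and -0.096 to 0.11 for Vipr2 at 16 against 8 weeks.

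Counts of all genes called, the background for the receptors, depended more on the setting. At 8 against 4 weeks, 1345 genes in the fit reported became 210 with array weights, 2 with the arrays of those ages alone, 245 with the replicate number as a block and 16 with the covariate. At 12 against 8 weeks 1 gene became 2 with median centring, 2 with limma-trend, 2 with the covariate, 7 with cyclic loess, 15 with quantile normalization, 27 with array weights, 274 with those ages alone and 0 with the mean of probe sets. At 16 against 12 weeks 35 became 1164 with array weights, 111 with those ages alone, 53 with quantile normalization, 23 with limma-trend, 18 with the mean of probe sets and 15 with the block. At 12 against 4 weeks 17 became 77 with array weights, 8 with the filter, 9 with quantile normalization, 6 with the block and 110 with the covariate. At 16 against 8 weeks 0 became 1 with array weights, 7 with cyclic loess, 10 with quantile normalization and 12 with the covariate. At 16 against 4 weeks 660 became 1389 with array weights, 75 with those ages alone, 262 with the block and 148 with the covariate, and the test of any difference went to 1486 with array weights, 86 with the block and 122 with the covariate, against 473. With 1 mouse left out the counts ranged from 14 to 2694, 1 to 225, 9 to 1035, 6 to 22, 0 to 1, 81 to 3003 and 85 to 2611 in the order of comparisons in this paragraph.

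Replicate numbers name different mice at each age, so they do not pair them. The correlation of same-numbered mice had a median of 0.0144 over 30 pairs and was over 0.1 in 8. For mice of other numbers the median was -0.0009 over 120 pairs, with 44 over 0.1. The replicate block called 0 of the 7 receptors in every comparison, and the adjusted p of Adra1b for any difference was 0.0702 with it. Of the 13 calls of signalling and transmitter genes the block kept 3 (Plcb1 and Rgs5 at 8 against 4 weeks and Pde3a at 16 against 4 weeks), and the other 10 had adjusted p of 0.0502 to 0.0808. Array weights kept 7 of the 13, cyclic loess 7, quantile normalization 8, limma-trend 9 and median centring 13, while the filter kept all 11 that it tested.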
